A study of Homo sapiens with 6 samples.

Results

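The U3 small nucleolar RNA genes on the short arm of chromosome 17 are 5 near-identical copies, SNORD3B-1, SNORD3B-2, SNORD3D, SNORD3A and SNORD3C, and the peaks of the DEK oncoprotein over them were followed through both precipitations. The members were chosen by position, as the DEK peaks that overlap the 160 kb of hg19 holding the 5 genes. This gave 3 of the 15017 peaks of replicate 1 and 39 of the 152779 peaks of replicate 2. Intersecting the lists gave 5 of the 4453 intervals that both precipitations share. The cluster itself was selected on the DEK peak scores, because one of these intervals ranks first by the lower of its scores, so its DEK values are a description and were not tested.

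DEK is a chromatin protein, and U937 is an established human myeloid cell line. Chromatin from U937 cells, grown in medium with serum, was crosslinked with formaldehyde, sheared by sonication and precipitated. There were 2 precipitations with an antibody against DEK (Abcam, ab-74975), 2 with an antibody against trimethylated lysine 4 of histone H3 (H3K4me3; Abcam, ab-8580), and 2 samples of chromatin without antibody, of which no file was analysed here. H3K4me3 is a mark of active promoters. All values come from 1 cell line, and with 2 precipitations per antibody no spread between replicates was estimated.

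U3 is a box C/D small nucleolar RNA, a short nucleolar RNA held by the proteins FBL, NOP56, NOP58 and SNU13, with RRP9 as the protein particular to U3. It base-pairs with the precursor of ribosomal RNA and is needed for the cuts that release the RNA of the small ribosomal subunit. Most small nucleolar RNAs in human cells are processed from introns, while U3 genes carry promoters of their own, of the type found at spliceosomal RNA genes and read by RNA polymerase II.

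Both sequences printed here are the reference sequence (GRCh37, the same as hg19 on chromosome 17), and they are shown because the copies differ from them by only a few bases. The U3 sequence of SNORD3A lies at chr17:19091329-19091545 on the plus strand. Capitals mark TGATGA, the letters of a box C, at position 158 and the last CTGA, the letters of a box D, at position 209.
SNORD3A U3 sequence: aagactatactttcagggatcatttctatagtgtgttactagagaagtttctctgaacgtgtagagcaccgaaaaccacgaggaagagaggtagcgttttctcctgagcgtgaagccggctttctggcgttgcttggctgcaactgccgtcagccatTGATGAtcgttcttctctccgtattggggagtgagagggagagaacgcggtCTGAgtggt

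The window from 250 bp before to 50 bp after the 5′ end of SNORD3A lies at chr17:19091079-19091378. Capitals mark ATTGG, which is CCAAT read on the other strand, and ATGCTAAT.
SNORD3A promoter window: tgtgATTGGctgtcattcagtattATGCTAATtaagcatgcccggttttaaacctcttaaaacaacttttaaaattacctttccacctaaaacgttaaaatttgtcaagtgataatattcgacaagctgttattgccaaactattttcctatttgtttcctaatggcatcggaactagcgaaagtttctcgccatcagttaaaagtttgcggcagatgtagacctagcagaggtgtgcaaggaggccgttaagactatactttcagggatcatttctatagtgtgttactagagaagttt

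All 5 copies are 217 bp long, without a gap between them. Relative to SNORD3A and counted from 1 at the 5′ end, SNORD3B-1 and SNORD3B-2 carry A78C, SNORD3D carries A4G, C53T and A78C, and SNORD3C carries G108A. The stretches around these positions are shown because nothing else within U3 sets the copies apart, and the differing base is in capitals.
SNORD3B-1 U3 position 78: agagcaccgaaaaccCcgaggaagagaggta
SNORD3D U3 position 4: aagGctatactttcaggga
SNORD3D U3 position 53: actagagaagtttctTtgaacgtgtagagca
SNORD3C U3 position 108: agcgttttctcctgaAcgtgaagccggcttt

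The genes form a pair, a single gene and a second pair. SNORD3B-1 is on the plus strand at chr17:18965225-18965441, and SNORD3B-2 faces it on the minus strand at chr17:18967233-18967449, with 2224 bp between their 5′ ends. SNORD3D stands alone on the minus strand at chr17:19015733-19015949. SNORD3A, on the plus strand, and SNORD3C, on the minus strand at chr17:19093342-19093558, face each other with 2229 bp between their 5′ ends. Both pairs thus point inward, and the first and last 5′ ends are 128333 bp apart. In GENCODE release 44 the gene models of all 5 start at the U3 sequence and run past it, with lengths of 581 bp to 791 bp. The model at SNORD3D is 637 bp long and annotated as a long non-coding RNA rather than a small nucleolar RNA, and SNORD3D was found by its sequence.

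The similarity reaches far beyond the genes. Over the 10 pairs of copies, identity was 98.16% to 100% in the U3 sequence, 99.0% to 100% in the 300 bp before it and 96.84% to 100% in the 1000 bp before it. In the 1000 bp that begin at the 5′ end, and so include the U3 sequence itself, it was 91.83% to 98.9%. The copies are thus least alike downstream of U3. In the promoter window SNORD3C was identical to SNORD3A. Counted from 1 at the window's first base, SNORD3B-1 and SNORD3B-2 differed from SNORD3A by C66T, A239G and G248A, and SNORD3D by A239G and A254G. Blocks of at least 3000 bp with a second copy, at 98% identity or more, in the region or in the 50 kb on either side of it covered 159985 of its 160001 bp. There were 11 such pairs of blocks, 7 of them inverted, and the longest, which runs past the end of the region, had 39905 bp at 99.92% identity.

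Promoter windows of the same 300 bp at all annotated gene starts give the background for the letters found. All 5 members held CCAAT, as did 36.7% of 64246 windows searched on both strands. The octamer ATGCAAAT, known as the core of the distal element of snRNA-type promoters, was in 0 of 5 members and in 2.24% of windows. ATGCTAAT, which differs from it by 1 base and was searched after the sequences had been read, was in 5 of 5 members and in 0.942% of windows. AGGAA, held by ETS factor sites, was in all 5 members and in 63.1% of windows. The E-box letters CACGTG were in 0 of 5 members, against 5.54% of windows. The GC-box letters GGGCGG were in 0 of 5 too, against 26.6%, and so was TGTGG, with 53.4%. The members share their windows almost base for base, so these counts describe 1 sequence in 5 copies.

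Reads in the study were paired and 100 bases long, and few stretches of that length are particular to one place here. Of all 100-base words in the region, 7.221% occurred once in the genome on either strand. Within the U3 sequence the share was 0% at SNORD3B-1 and at SNORD3B-2, 44.92% at SNORD3D, 59.32% at SNORD3A and 84.75% at SNORD3C. In the 1000 bp before the gene it was 14.54% at SNORD3B-2 and 0.333% at SNORD3D, and 0% at the other 3. From the end of U3 to 1000 bp after the 5′ end it was 34.74% at SNORD3B-1, 38.39% at SNORD3B-2 and 34.31% at SNORD3D. In the same stretch it was only 0.8759% at SNORD3A and 2.044% at SNORD3C. For comparison, the median over 4283 shared intervals outside the cluster was 100%, and 121 of them (2.83%) were under 50%. A read of a repeated word matches more than one place equally well, and its mate may or may not settle the place. The share of read pairs that could be placed was not computed, so the shares of single words may understate it, and where neither read of a pair is particular to a copy the copies cannot be told apart.

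Before the peaks of single genes, the lists themselves differ in ways that touch all of their values. For each DEK peak the lists give its tags (the aligned reads in it), a score that grows with the negative log10 of the p-value from the peak caller MACS, and a fold enrichment over the local background. The median peak of replicate 1 had 47 tags, a width of 1016 bp, a score of 68.8 and 5.57-fold enrichment, and that of replicate 2 had 20 tags, 697 bp, a score of 78.28 and 4.58-fold enrichment. The false discovery rate deposited with the peaks was 100% for every peak of replicate 1, those at U3 genes included. At the U3 genes in replicate 2 it was 1.45% at the first pair, 0.79% at SNORD3D and 1.85% at the second pair. The study's methods set a lower bound on the reads of each library, while the depth of a single precipitation is not given in the lists. The peaks hold 988363 tags in replicate 1 and 4172422 in replicate 2, of which the cluster took 1321 (0.134%) and 2894 (0.0694%).

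The map of the cluster gives the peaks of both precipitations over the genes. In replicate 1 the 3 peaks were at the first pair, at SNORD3D and at the second pair, and nowhere else in the 160 kb. Each of the 5 genes started inside one of them. In replicate 2 the peaks were spread over the region, covering 40.9% of it against 8.79% in replicate 1, and the tallest by score were again at the pairs of genes.

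**Figure D1:**
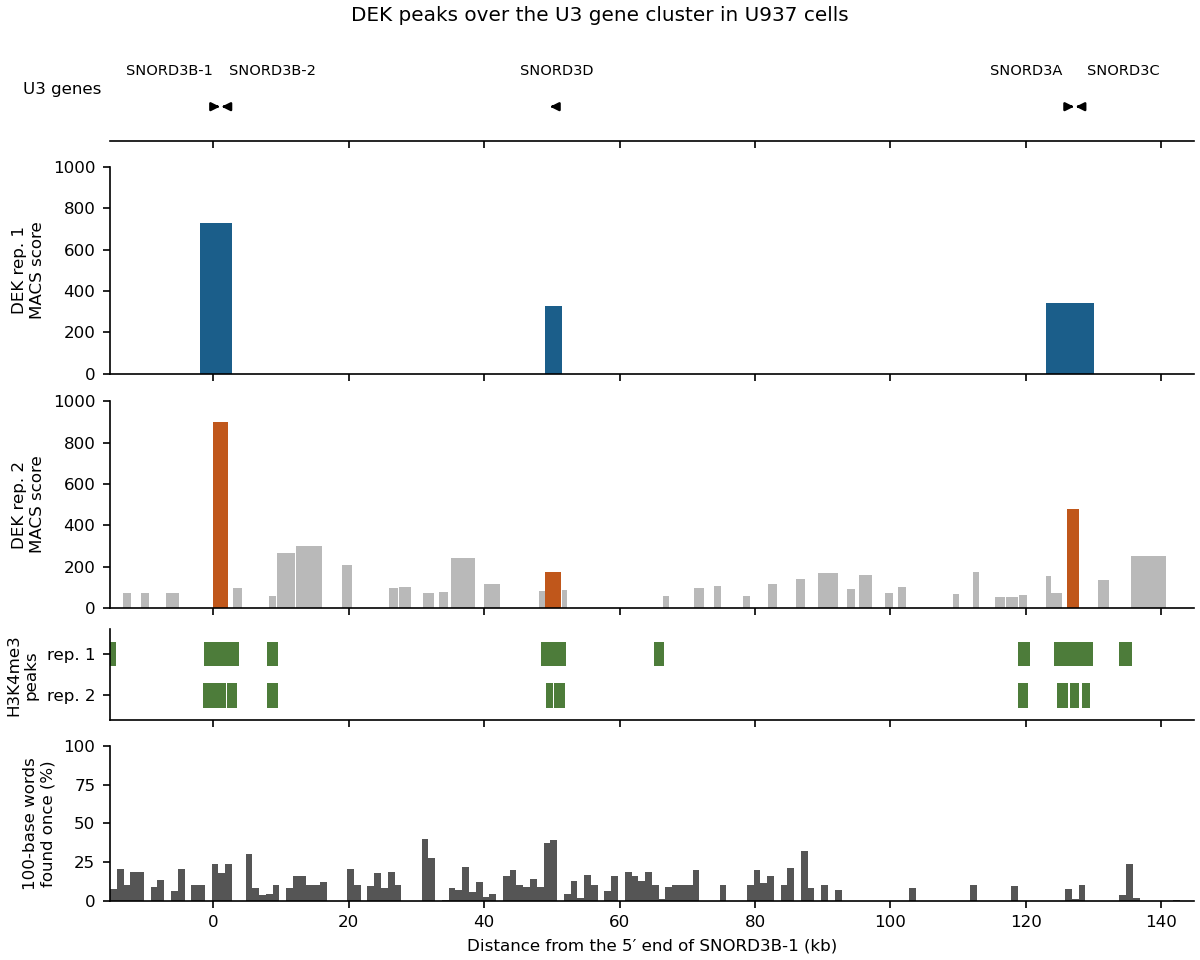
Peaks over the 160 kb cluster against the distance in kb from the 5′ end of SNORD3B-1; from top to bottom the panels show the genes (arrowheads point in the direction of transcription), the MACS score of DEK peaks in replicates 1 and 2 (coloured where a peak overlaps a U3 sequence, grey elsewhere), H3K4me3 peaks and the percent of 100-base words in 1 kb bins that occur once in the genome. The 3 peaks of replicate 1 all lie at U3 genes, while replicate 2 has 36 further peaks without a U3 sequence over the whole width of the region.

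At the pair SNORD3B-1 and SNORD3B-2, the replicate 1 peak (chr17:18963334-18967977) was 4644 bp wide and held 577 tags, scoring 729.27 at 10.46-fold enrichment. The replicate 2 peak (chr17:18965190-18967376) was 2187 bp wide and held 291 tags, scoring 900.44 at 5.91-fold enrichment. In both precipitations this was the peak with the highest score in the cluster. It ranked 26 of 15017 in replicate 1 and 207 of 152779 in replicate 2.

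At SNORD3A and SNORD3C, one broad replicate 1 peak (chr17:19088224-19095255) of 7032 bp took in both genes, with 531 tags and a score of 339.77 at 17.16-fold enrichment. The replicate 2 peak (chr17:19091343-19093114) was 1772 bp wide and began 14 bp inside SNORD3A. It ended before the U3 sequence of SNORD3C but overlapped the end of that gene's longer model. It held 118 tags and scored 480.95 at 10.99-fold enrichment. These were the highest fold enrichments of the cluster in both lists. By score the peaks ranked 294 of 15017 and 813 of 152779.

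SNORD3D had a peak of like extent in both lists, chr17:19014281-19016670 (2390 bp) in replicate 1 and chr17:19014205-19016561 (2357 bp) in replicate 2. In replicate 1 the peak held 213 tags and scored 325.7 at 10.53-fold enrichment. In replicate 2 it held 95 tags and scored 171.73 at 4.46-fold enrichment. In replicate 1 the fold enrichment was close to that at the first pair. In replicate 2 it lay at 0.974 times the median of the whole list, and the peak ranked 10966 of 152779 by score.

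The tags can be set against the number of U3 sequences that each peak overlaps. In replicate 1 there were 288.5 tags per gene at the first pair, 265.5 at the second pair and 213 at SNORD3D. In replicate 2 the peak at the second pair overlapped the U3 sequence of SNORD3A only. There were 145.5 tags per gene at the first pair, 118 at SNORD3A and 95 at SNORD3D. The order was thus the same in both precipitations, and it rests on SNORD3C not being counted in replicate 2, since with both genes of the second pair its value there would be 59. Per kb of peak, replicate 1 had 124.2 tags at the first pair, 75.51 at the second and 89.12 at SNORD3D, and replicate 2 had 133.1, 66.59 and 40.31, so that the first pair was again highest and the other loci changed places. Only part of the sequence under these peaks is particular to a copy (24.9% of 100-base words in the shared interval at the first pair, 34.88% at SNORD3D and 5.021% at SNORD3A), so these values describe where the reads were placed.

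Replicate 2 had 36 peaks in the cluster that overlap no U3 sequence. They held 24 to 204 tags (median 50.5), with scores of 52.21 to 299.03 (median 96.83) and fold enrichments of 2.21 to 5.25 (median 3.5). Their tags per kb were 24.0 to 82.15 (median 38.3). The peaks at both pairs lay above all 36 in score and in fold enrichment. The SNORD3D peak lay within their range in each of these measures. The replicate 2 list has many peaks elsewhere too: a stretch of the same length held 7.87 on average over the genome and 15.7 on chromosome 17, against 39 here, and for replicate 1 the means were 0.772 and 0.948 against 3.

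**Figure D2:**
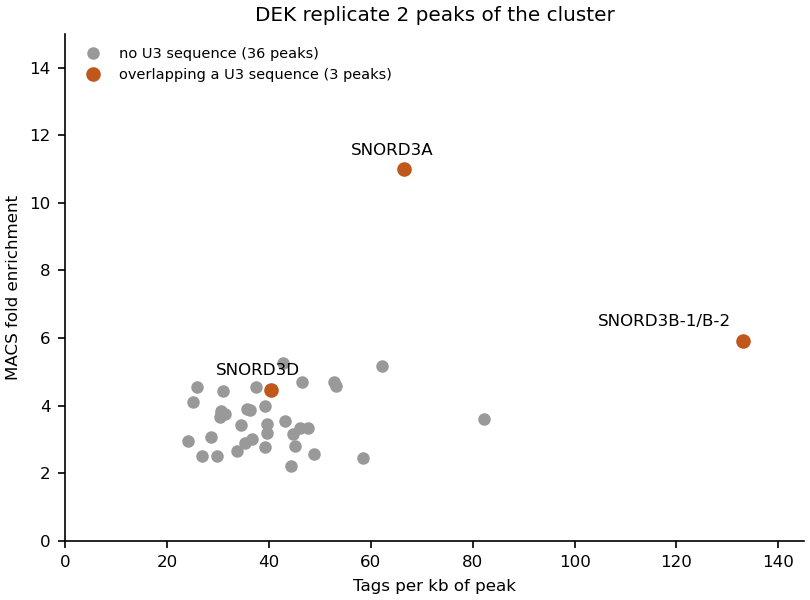
Tags per kb of peak (x axis) and MACS fold enrichment (y axis) of the 39 replicate 2 peaks of the cluster, 1 point per peak. The peak at SNORD3B-1 and SNORD3B-2 is the farthest right and the one at SNORD3A the highest, while the SNORD3D peak lies among the 36 grey points of peaks without a U3 sequence.

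Of the 39 replicate 2 peaks, 32 have a counterpart in the region, a position that the middle of the peak matches in another copy of a repeated block. A peak was also called at such a position for 26 of them. Over all 52 counterpart positions, 35 (67.3%) lay in a replicate 2 peak, beside the 40.9% of the region that these peaks cover. A match can be counted from the peak at either end, so the 52 positions are not independent. The U3 peaks are among those matched: the middle of the peak at the first pair has its counterparts in the SNORD3D peak and in the peak at SNORD3A. In 19 of the 39 peaks no 100-base word was found once in the genome, and the highest share was 42.01%, and how much of this pairing comes from reads placed at either copy was not tested.

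Both precipitations shared 5 intervals in the cluster, made from 3 peaks of replicate 1 and 5 of replicate 2. All 3 replicate 1 peaks overlapped a replicate 2 peak by at least 1 bp, where 27.4% of the list did. Of the replicate 2 peaks it was 5 of 39, where 2.9% of the list did. The rule used this overlap, so nothing is read from these shares. The interval at SNORD3B-1 and SNORD3B-2 was the whole replicate 2 peak and 47.1% of the replicate 1 peak. The interval at SNORD3D was almost the same in both lists, with 95.4% of one peak and 96.8% of the other. The broad replicate 1 peak at the second pair was cut into 3 intervals by separate replicate 2 peaks, of which chr17:19091343-19093114 overlapped SNORD3A and the other 2, chr17:19088239-19088881 and chr17:19088989-19090521, lay upstream of it.

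By the lower of the scores, the interval at the first pair ranked 1 of 4453 with 729.27, and the next 3 in the whole set had 670.14, 513.7 and 466.31. The interval at SNORD3A ranked 12 with 339.77 and the one at SNORD3D ranked 119 with 171.73. The 2 intervals before SNORD3A ranked 166 with 153.43 and 1359 with 73.71. Other measures of the same peaks gave another order. By the lower tag count the first pair ranked 11, the second 161 and SNORD3D 256. By the lower fold enrichment the second pair ranked 2, the first 263 and SNORD3D 1450.

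**Figure D3:**
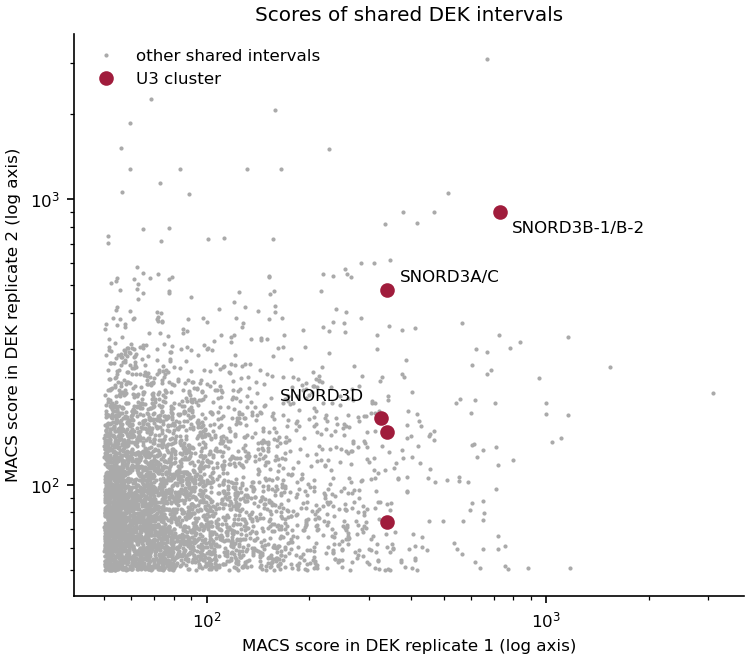
MACS score in DEK replicate 1 against replicate 2, both on log axes, for all 4453 shared intervals, with the 5 of the U3 cluster as large red points. The interval at SNORD3B-1 and SNORD3B-2 is high in both (729.27 and 900.44), and the 3 intervals at the second pair share one replicate 1 score of 339.77 because they come from a single peak.

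The summits of these peaks, where most tags pile up, lay downstream of a U3 5′ end. At the pairs this follows from the layout: the genes face each other, so any summit there is downstream of a 5′ end. Only at SNORD3D could the summit have lain on the other side. At SNORD3B-1 the summit was 288 bp after the 5′ end in replicate 1 and 511 bp after it in replicate 2. At SNORD3D it was 243 bp and 344 bp after it. At SNORD3A it was 114 bp and 744 bp after it. The U3 sequence ends 217 bp after the 5′ end, so only the replicate 1 summit at SNORD3A fell within it. In the pairs, the summits lay nearer to SNORD3B-1 than to SNORD3B-2 and nearer to SNORD3A than to SNORD3C in both precipitations. Of the 100-base words over each summit, 46, 1 and 63 were found once in the genome for the replicate 1 summits at SNORD3B-1, SNORD3D and SNORD3A, and 42, 52 and 4 for those of replicate 2.

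The edges decide which genes count as having a DEK peak at their start. All 5 genes started inside a replicate 1 peak, where 3.75% of 64449 annotated genes did. Only SNORD3B-1 and SNORD3D started inside a replicate 2 peak, where 23.2% of genes did. At SNORD3A the replicate 2 peak began 14 bp after the 5′ end and at SNORD3B-2 73 bp after it, while at SNORD3C it began 444 bp after it and did not reach the U3 sequence. SNORD3B-1 and SNORD3D also started inside a shared interval (1.6% of genes). A measure close to the study's is the middle of a shared interval within 1000 bp of the start. The study took the gene closest to each peak, while here every gene in reach was counted. By this measure SNORD3D at 528 bp and SNORD3A at 899 bp were counted (2 of 5, against 2.14% of genes). SNORD3B-1 at 1058 bp, SNORD3B-2 at 1166 bp and SNORD3C at 1330 bp were not. The strongest interval by score thus had neither of its genes counted, because its middle lies between them.

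**Figure D4:**
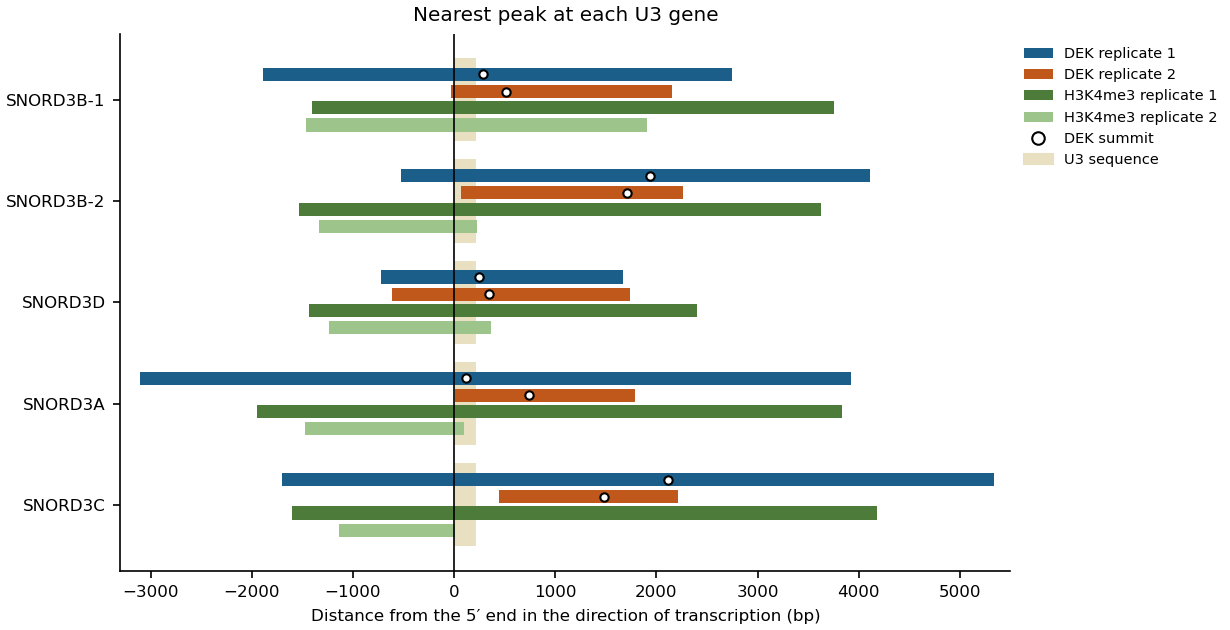
Extent of the nearest DEK and H3K4me3 peak at each U3 gene, in bp from the 5′ end along the direction of transcription, with DEK summits as open circles and the U3 sequence as a beige band. Replicate 1 peaks and H3K4me3 peaks cross the 5′ end of all 5 genes, while the DEK replicate 2 peaks cross it at SNORD3B-1 and SNORD3D and begin 14 to 444 bp after it at the others.

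The H3K4me3 lists were not used to choose the cluster. They give positions only, without tags or scores, and hold 47523 peaks in replicate 1 and 29335 in replicate 2, of which 8 and 9 lay in the cluster. All 5 U3 genes started inside an H3K4me3 peak in both replicates, where 24.5% of annotated genes did. Replicate 1 had one H3K4me3 peak over each pair and one over SNORD3D. In replicate 2 the mark at the first pair, SNORD3D and the second pair was divided into 2, 2 and 3 peaks. At the second pair the outer 2 of these 3 ended 103 bp and 14 bp after the 5′ ends of SNORD3A and SNORD3C and reached upstream from there.

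Of the 5 shared DEK intervals, 4 were overlapped by an H3K4me3 peak in both replicates, against 33.7% of all shared intervals. The exception was chr17:19088239-19088881, the farthest from a U3 gene. The 3 replicate 1 peaks were all overlapped by the mark in both replicates, against 32.9% of that list. In replicate 2 it was 10 of 39 peaks, against 7.74% of that list, among them the 3 at U3 genes and 7 of the other 36. The H3K4me3 calls rest on the same repeated sequence as the DEK calls, so the limit on assigning reads to a copy holds for the mark too.

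Apart from the U3 genes, 14 annotated genes start within the region: the adaptor protein genes GRAP and GRAPL, the pseudogenes KYNUP1 and KYNUP2, GRAPLDR, AC007952.1 and 8 unnamed long non-coding RNAs. None of the 14 started inside a replicate 1 peak (3.75% of all annotated genes) or had a shared interval with its middle within 1000 bp (2.14%), and at 14 genes a count of 0 is near these shares. None started inside an H3K4me3 peak of both replicates (24.5% of genes). In replicate 1 alone, GRAP and GRAPL did have a start inside such a peak (chr17:18949324-18950806 and chr17:19030246-19031726). A start inside a replicate 2 peak was found for 4 of them, all long non-coding RNAs, where 23.2% of genes had one.

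Human DNA holds many further U3-like sequences, most of them known as pseudogenes. A search of the genome with the SNORD3A sequence found 47 matches over at least 95% of its length. The 5 in the cluster were at least 98.62% identical to it, and the other 42 were 65.83% to 83.87% identical (median 76.05%). GENCODE names 81 other U3 loci, and 0 of them had a shared interval with its middle within 1000 bp. The share was 2.14% of all annotated genes and 0.623% of small nucleolar and spliceosomal RNA genes. At 81 loci a count of 0 is near these shares. A replicate 1 peak had its middle within 1000 bp at 2 loci, against 4.38% of genes, and a replicate 2 peak at 5 (6.17%, against 32.3%). The scores of these 7 peaks were 51.96 to 100.39. The loci with a replicate 1 peak were on chromosome 6 (29 tags, score 85.39) and on chromosome 17 outside the cluster (96 tags, score 95.57). Both scores are below the lowest replicate 1 score at the U3 genes of the cluster, which was chosen on such scores.

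Among the 3372 annotated small nucleolar and spliceosomal RNA genes, 21 (0.623%) had a shared interval with its middle within 1000 bp. Outside the cluster, the 5 with the highest lower score were RNU1-28P, RNU4-2, RNU4-1, RNVU1-6 and SNORA63. RNU1-28P, a copy of the U1 spliceosomal RNA gene, had scores of 124.82 and 473.47 and ranked 292. RNU4-2 and RNU4-1, which encode the U4 spliceosomal RNA, lie side by side and had the same interval, with scores of 148.7 and 105.37. RNVU1-6, a U1 variant gene, had 120.76 and 98.07. The entry on chromosome 7 annotated as SNORA63, the name of a guide RNA of the box H/ACA class, had 88.55 and 212.99. All of these have lower scores below those of the intervals at the U3 genes, but the cluster was chosen on that score. By the lower fold enrichment the order differed: RNU1-28P had 5.67 and SNORA63 5.14, against 4.46 at SNORD3D. RNVU1-6 also had 4.46, and the interval of RNU4-2 and RNU4-1 had 4.32. The first pair and SNORD3A were higher than these 5 genes, at 5.91 and 10.99. Among the small RNA genes with lower scores, the entry snosnR60_Z15 had fold enrichments of 8.2 and 7.26, both above 5.91.

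The proteins that work with U3 were looked up in the same way. None of the genes for the core proteins FBL, the methyltransferase of box C/D particles, NOP56, NOP58, SNU13 and RRP9 had a shared interval with its middle within 1000 bp of a start, or a replicate 1 peak. A replicate 2 peak at that distance was found for 4 of the 5, and all 5 started inside an H3K4me3 peak of both replicates. Of 57 genes for the U3 particle, its assembly and the small-subunit processome, 3 (5.26%) had a shared interval, against 4.38% of protein-coding genes. A replicate 1 peak was within 1000 bp of 8 of the 57 (14.0%, against 8.45% of protein-coding genes) and a replicate 2 peak of 43 (75.4%, against 56.9%). All 57 had at least 1 annotated start inside an H3K4me3 peak of both replicates, against 55.1% of protein-coding genes.

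The 3 genes were UTP15, NOP14 and TGS1. UTP15, a subunit of the UTP-A complex, had scores of 69.79 and 81.76 and fold enrichments of 4.95 and 3.18. NOP14, which joins the small-subunit precursor, had scores of 64.79 and 786.72 and fold enrichments of 3.93 and 5.66. Its interval, chr4:2943087-2944460, lies within the gene (chr4:2939660-2965133, minus strand) near the start of a short transcript model, away from the start of the full-length gene, and it was not overlapped by H3K4me3 peaks in both replicates. TGS1, the enzyme that adds the trimethylguanosine cap carried by U3, had scores of 58.4 and 150.78 and fold enrichments of 4.36 and 5.22. By the lower score, on which the cluster was chosen, they ranked 1602, 2038 and 2778 of 4453, below the intervals at SNORD3B-1, SNORD3D and SNORD3A. Of the 8 factors of snRNA-type promoters and the 12 Integrator subunits, which form the ends of such transcripts, 0 had a shared interval. The share of protein-coding genes was 4.38%, and at lists this short a count of 0 is near it. A replicate 2 peak was found for 7 and 9 of them, against 56.9% of protein-coding genes.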

How the data were processed

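ChIP-seq peak lists of 2 DEK and 2 H3K4me3 precipitations of U937 cells were analysed. The authors used Bowtie 2 for the alignment (hg19) and MACS 1.4.1 for the peaks of every single precipitation, leaving all parameters at their defaults. The deposited DEK lists give, for each peak, a tag count that the authors did not normalize, a score (the negative log10 of its p-value, multiplied by 10), a fold enrichment (a ratio) and a false discovery rate in percent. The columns have no header, and their meaning was read from the layout of a MACS table. Whether H3K4me3 starts count from 0 or 1 is not stated. Chromatin that was not precipitated served the authors as control.

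Reads were paired, and Bowtie 2 by default keeps 1 placement of a read or pair that matches several positions equally well, so tags may be divided among copies in a way that these lists do not show. DEK positions count from 1, and the summit offset may be off by 1 bp.

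Shared intervals are overlaps of at least 1 bp. The study's methods state no minimum overlap, and its number of shared peaks is not the 4453 found here. Gene starts came from GENCODE release 44 on GRCh37 and may differ from what the authors used. Copies were aligned with BLAST+ 2.17.0 and Biopython 1.88, and 100-base words were counted on both strands of the genome. The overlap and distance functions were checked on simulated data. The labels do not say that replicates are separate cultures. No test was run, since the members, lists and comparisons were chosen with earlier results of these data known. The genes named are the 5 members, the other genes starting in the region and U3 loci with a peak within 1000 bp. Also named are the core proteins, listed genes with a shared interval and the 5 most like small RNA genes by the lower score. The entry snosnR60_Z15 was added for its fold enrichments.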

Additional observations from a re-analysis of the deposited data

How the results depend on the processing

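Over 29 alternatives, 17 counts or ranks stayed within 1.5 times the reported value and 12 did not. The 39 replicate 2 peaks became 19 with a score of at least 100 and 11 when that list was cut to the length of the replicate 1 list, by construction. The 5 shared intervals became 3 with that shorter list (at the first pair, at SNORD3D and at SNORD3A) and 1, at SNORD3D, when at least 50% of each peak had to overlap. Without one replicate the count ranged from 3 to 39. The 2 U3 genes near the middle of a shared interval became 0 within 500 bp, 5 within 2000 bp and 1 with an overlap of 50%. The best rank of 1 became 11 by tag count, 2 by fold enrichment and 3 by tags per kb. Counting summits within 1000 bp, an alternative added after the data were seen, gave 3 genes in each replicate. The 3 replicate 1 peaks, the 4 intervals with H3K4me3 and the 3 genes of the U3 particle and processome stayed within 1.5 times under each alternative run. No paired analysis was possible because the results come from no test. The depth of each precipitation is not given in the lists, and a value for a single copy is limited by the few words found once in the genome.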
